A study of Mus musculus with 8 samples.

Results

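The genes described here are 47 mouse genes of the interferon response: interferon regulatory factors (IRFs), interferon receptors with STAT2, and interferon-stimulated genes. They were taken by gene symbol from a list of the pathway, drawn up with earlier results of these data known, and all 47 had an entry among the 30266 genes of the deposited expression table. RNA had been sequenced from the liver of 8-week-old male mice labelled Mdr2-/-, the genotype of both groups. One group received phosphate-buffered saline (PBS) and the other 1.0 mg/kg of recombinant FGF21 (rFGF21), a liver hormone of energy metabolism, and tissue was taken 4 h later, with 4 libraries per group. The gene Mdr2, now named Abcb4, encodes the transporter that moves phospholipid into bile, and its loss leaves the liver cholestatic and chronically inflamed. The labels do not say that each library came from its own animal, so every p-value measures the spread between these libraries.

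Interferons are secreted signals of infection and tissue damage. Type I interferons bind IFNAR1 and IFNAR2, which activate a complex with STAT2 and IRF9 that binds interferon-stimulated response elements (ISREs), whereas interferon gamma binds IFNGR1 and IFNGR2 and acts through gamma-activated sites (GAS). IRF1 is itself induced through a GAS and binds ISRE-like sites. In liver, hepatocytes, Kupffer cells and endothelial cells all carry receptors for these signals.

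Promoter sequence shows which of these response elements lie near the genes the results turn on. RefSeq promoters of build GRCm38.p6 were matched by symbol for 37 of the 47 genes, each as the 250 bases before and 50 bases after a transcription start. The 160 bases before the start are printed for the 3 genes whose RNA passed the test and for 3 classical interferon-stimulated genes whose levels varied together between libraries. Capitals mark matches to the ISRE core GAAANNGAAA, searched on both strands, or to GAS, TTCNNNGAA, which reads the same on both strands. The windows are, in the order printed, chr9:92250034-92250193 (+), chr11:53769854-53770013 (+), chr10:19591789-19591948 (+), chr4:156200819-156200978 (-), chr19:34640729-34640888 (+) and chr19:34583369-34583528 (+).
Plscr1: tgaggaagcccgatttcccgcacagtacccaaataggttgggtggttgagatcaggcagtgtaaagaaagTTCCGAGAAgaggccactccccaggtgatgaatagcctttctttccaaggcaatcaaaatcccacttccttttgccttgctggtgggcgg
Irf1: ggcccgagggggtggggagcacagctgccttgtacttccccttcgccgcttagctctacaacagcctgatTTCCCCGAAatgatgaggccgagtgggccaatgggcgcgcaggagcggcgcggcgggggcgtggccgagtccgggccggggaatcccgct
Ifngr1: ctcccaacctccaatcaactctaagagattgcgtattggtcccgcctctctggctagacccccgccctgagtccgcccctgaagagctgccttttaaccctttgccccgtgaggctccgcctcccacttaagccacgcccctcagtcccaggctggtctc
Isg15: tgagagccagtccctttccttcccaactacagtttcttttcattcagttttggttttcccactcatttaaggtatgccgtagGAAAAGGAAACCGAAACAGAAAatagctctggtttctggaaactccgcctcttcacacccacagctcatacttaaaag
Ifit1: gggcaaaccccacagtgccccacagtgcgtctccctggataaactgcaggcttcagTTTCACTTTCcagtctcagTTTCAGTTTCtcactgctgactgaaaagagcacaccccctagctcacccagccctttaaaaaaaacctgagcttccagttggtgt
Ifit3: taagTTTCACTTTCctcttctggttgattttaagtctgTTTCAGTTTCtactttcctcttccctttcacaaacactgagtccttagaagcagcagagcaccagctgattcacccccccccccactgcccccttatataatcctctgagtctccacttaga

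In these windows Plscr1 and Irf1 each held 1 GAS match, both at positions -90 to -82 before the start, and no ISRE core. Ifngr1 held neither motif. Isg15 held 3 overlapping ISRE cores between -78 and -57, and Ifit1 and Ifit3 held 2 each. Over the full 300-base windows, 16 of the 37 genes (43.2%) held an ISRE core, against 3.99% of all 27025 genes with a promoter (3.44% of 32851 windows of that length). A GAS match was found for 13 of 37 (35.1%), against 9.55% of all genes (8.30% of windows). A match describes letters only, not binding by a factor.

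Libraries held 62756328 to 73313449 reads, and the members were read at between 186 and 42931 counts in a library. Levels are read counts scaled by TMM to a common library size (CPM), which compares 1 gene between libraries. Comparisons between genes divide that level by the annotated exon length (CPM per kb). The summed level of 5 hepatocyte markers was 56688 to 78906 CPM, and that of 5 retina markers was at most 0.516 CPM, with 2 of the 5 at 0 throughout; the extraction text of the labels names retina and the tissue labels name liver. The labels do not say which part of Abcb4 is disrupted, and it was read at group means of 384 (PBS) and 407 CPM (rFGF21). In bulk tissue, a change in the number of cells of a type and a change in RNA per cell cannot be told apart.

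After rFGF21, 3 of the 47 genes rose (Plscr1, Irf1 and Ifngr1) and 0 fell at an adjusted p under 0.05, by the quasi-likelihood test of edgeR with p-values adjusted after Benjamini and Hochberg over 18315 genes. Of all genes tested, 1.15% rose and 1.67% fell. At an unadjusted p under 0.05, 7 members were higher and 0 lower, where 8.92% of all genes were higher and 9.86% lower. DESeq2 and limma-voom also called 0 members lower. The PBS and rFGF21 libraries did not overlap for 5 members, all higher in rFGF21 (Plscr1, Irf1, Ifngr1, Irf8 and Ifnar1), against 5.9% of all genes apart and higher and 6.39% apart and lower. Fold changes were positive for 36 members and negative for 11, with a median log2 fold change of 0.17, against a median of 0.003 and 50.4% positive among all genes. With 1 library left out at a time the positive number ran from 28 (without rFGF21 library 3) to 42 (without rFGF21 library 1 or 5), and the median from 0.076 (without rFGF21 library 2) to 0.37 (without PBS library 4). The plot of fold changes by role shows the 3 genes past the threshold in 3 different role groups.

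**Figure D1:**
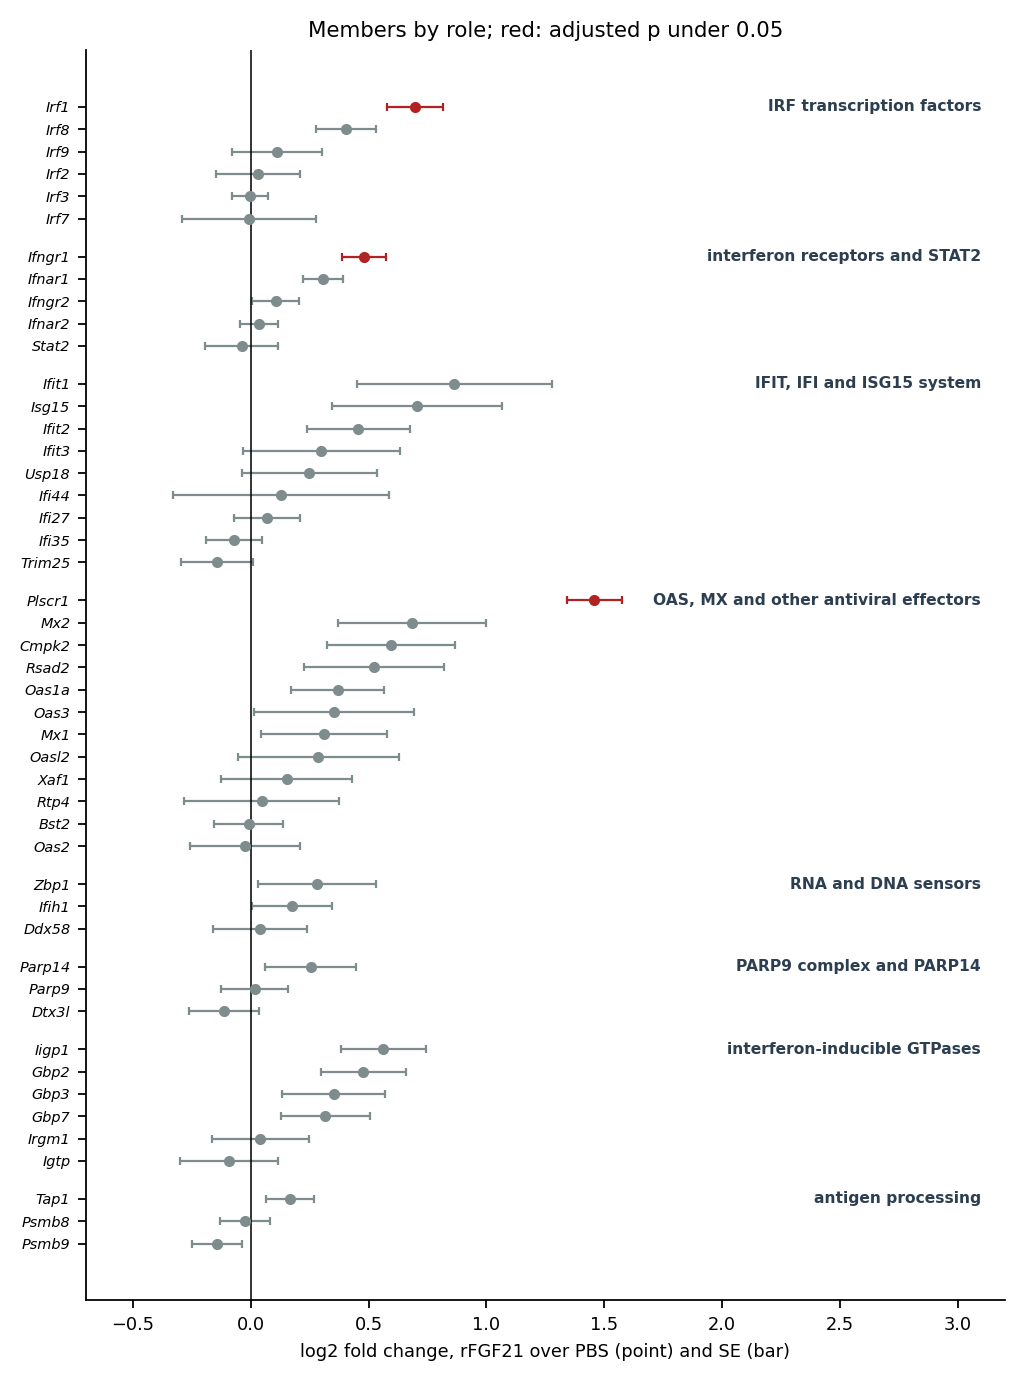
Log2 fold change of rFGF21 over PBS (x axis) for each of the 47 genes, grouped by role, with bars of 1 standard error (SE) from the edgeR fit over 4 libraries per group and adjusted p under 0.05 in red. Plscr1 lies at 1.46 and the other members lie between -0.14 and 0.86. The wide bars lie mostly in the IFIT, IFI and ISG15 group and among the OAS, MX and other antiviral effectors.

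Among the 6 IRFs, 1 rose. Irf1, the IRF first known as an activator of interferon and antigen-presentation genes (ENSMUSG00000018899, chromosome 11, 53770014 to 53777323, GRCm38), was read at 36.7, 37.8, 30.3 and 31.6 CPM in PBS libraries and at 57.0, 44.4, 58.3 and 61.5 CPM in rFGF21 libraries. The lowest treated library lay above the highest PBS library. Means were 34.1 ± 3.72 and 55.3 ± 7.50 CPM (SD, n = 4 each), a log2 fold change of 0.70 ± 0.12 (SE), or 1.62-fold, with an adjusted p of 0.0160. The call was lost without rFGF21 library 1 (adjusted p = 0.0581) and without rFGF21 library 5 (adjusted p = 0.0534). Irf1 overlaps the gene Gm17334 on the other strand, and with no strand setting stated for the counting, reads of the pair cannot be told apart.

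Irf8, which directs development of monocytes and dendritic cells, was read at 22.7, 23.2, 16.5 and 21.4 CPM in PBS and 25.4, 26.5, 26.5 and 32.3 CPM in rFGF21 libraries. The groups did not overlap, but the log2 fold change of 0.40 ± 0.13 did not pass the test (adjusted p = 0.119). The summed level of 6 monocyte markers separated the groups in the same way. It was 71.2 to 98.1 CPM in PBS and 120 to 170 CPM in rFGF21 libraries. Of these markers, 1 rose (Cx3cr1, 32.8 to 57.0 CPM, adjusted p = 0.0459). Ccr2 and Itgam also had no overlap between groups but did not pass the test (adjusted p = 0.0550 and 0.0748). Ly6c2 (means of 2.77 and 2.86 CPM), Ms4a4c and Fcgr1 overlapped. The part of these markers in the Irf8 and Irf1 values was not tested. Irf7, the factor that amplifies type I interferon production and is itself an interferon-stimulated gene, had the highest level per length of the 6 (42.5 CPM per kb in PBS and 42.2 in rFGF21). Its CPM were 132, 137, 257 and 115 in PBS and 127, 192, 216 and 103 in rFGF21 libraries, so that both groups held high and low libraries and the means were nearly equal (160 ± 65.1 and 159 ± 53.3, log2 fold change -0.01 ± 0.28, adjusted p = 0.992). Irf9, the DNA-binding partner of STAT2, was at 49.5 ± 13.8 and 53.5 ± 9.79 CPM, a log2 fold change of 0.11 ± 0.19. Irf2, a repressor at IRF1 sites, was at 57.3 ± 17.7 and 58.5 ± 5.75 CPM (0.03 ± 0.18). Irf3, which is activated by phosphorylation downstream of nucleic acid sensors, was at 56.4 ± 3.15 and 56.3 ± 2.09 CPM and had the narrowest SE of the 6 (0.08).

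Of the 4 receptor chains and Stat2, 1 rose. Ifngr1, the ligand-binding chain of the interferon gamma receptor (ENSMUSG00000020009, chromosome 10, 19591949 to 19610229), was read at 55.2, 57.5, 47.2 and 54.0 CPM in PBS and at 78.1, 77.3, 65.5 and 77.8 CPM in rFGF21 libraries. All 4 treated libraries exceeded all 4 PBS libraries, with rFGF21 library 3 the lowest of its group. The log2 fold change was 0.48 ± 0.09 (1.40-fold; means 53.5 ± 4.45 and 74.7 ± 6.14 CPM), with an adjusted p of 0.0264. The adjusted p rose above 0.05 on leaving out any of 5 libraries: PBS library 1 (0.0589) or 5 (0.0607), or rFGF21 library 1 (0.0932), 2 (0.0639) or 5 (0.0764). It was also above 0.05 with no low-count filter (0.0525).

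Ifnar1, a chain of the type I interferon receptor, was read at 48.5, 51.4, 51.5 and 50.6 CPM in PBS and 61.7, 64.0, 55.1 and 68.9 CPM in rFGF21 libraries. These groups did not overlap either, and the log2 fold change of 0.31 ± 0.09 had an adjusted p of 0.0890. Of the partner chains, Ifngr2 had a log2 fold change of 0.10 ± 0.10 (40.0 to 43.0 CPM) and Ifnar2 one of 0.03 ± 0.08 (83.2 to 85.1 CPM). Whether the 2 chains of a receptor differed from each other in response was not tested. Stat2, the transactivating subunit of the type I interferon complex, was at 81.9 ± 20.9 CPM in PBS, where library 4 reached 113 and the others 70.5 to 72.3, and at 79.7 ± 7.81 CPM in rFGF21 libraries (log2 fold change -0.04 ± 0.15).

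**Figure D2:**
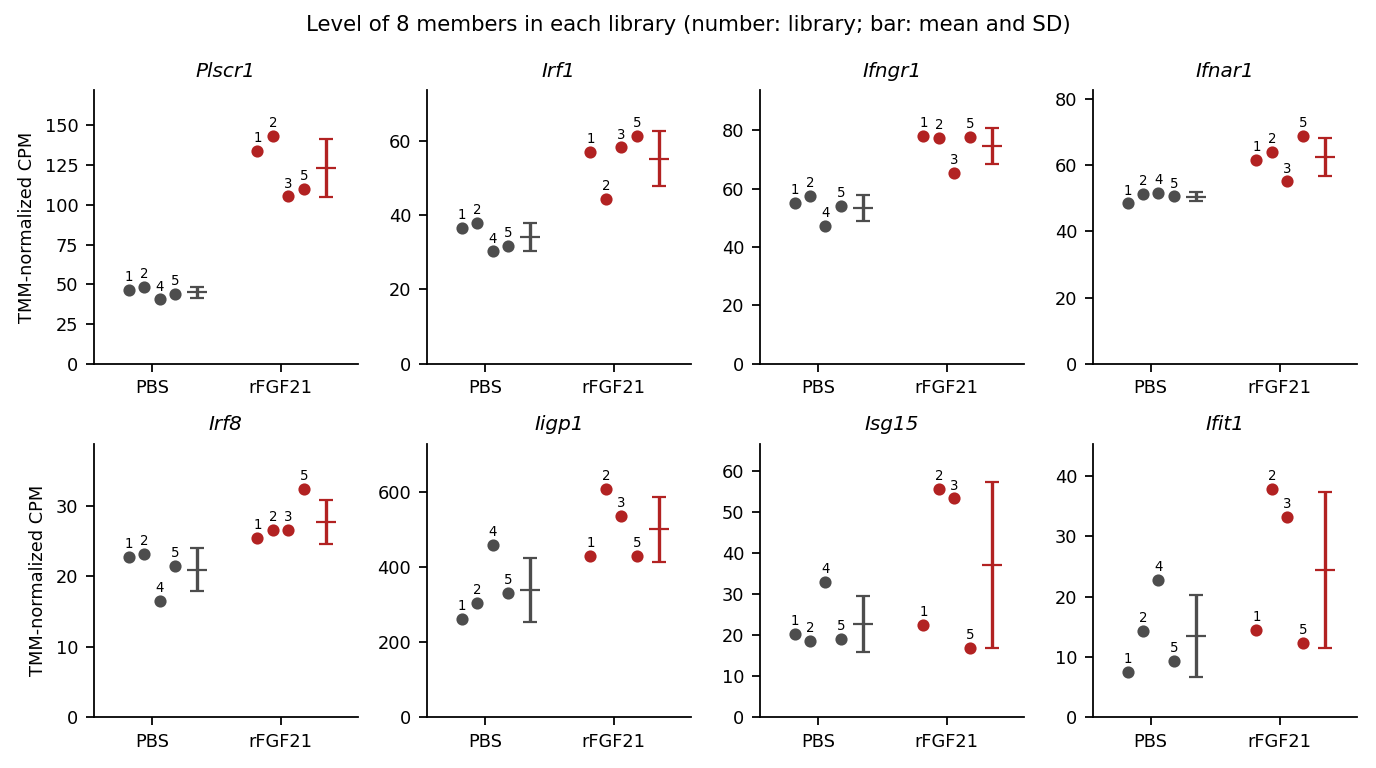
Level in each library (points, TMM-scaled CPM on the y axis) with group mean (line) and SD (bar) of 8 members, 4 numbered libraries per group. Plscr1, Irf1, Ifngr1, Ifnar1 and Irf8 separate the groups, whereas Isg15 and Ifit1 have high (PBS 4, rFGF21 2 and 3) and low libraries within each group.

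The 12 OAS, MX and other antiviral effectors included 1 gene that rose. Plscr1, phospholipid scramblase 1, an interferon-inducible membrane protein with antiviral activity (ENSMUSG00000032369, chromosome 9, 92249750 to 92272278), was read at 46.3, 48.5, 40.4 and 44.1 CPM in PBS and at 134, 143, 105 and 110 CPM in rFGF21 libraries. Every treated library was above every PBS library by a wide margin. Means were 44.8 ± 3.46 and 123 ± 18.4 CPM, a log2 fold change of 1.46 ± 0.12 (2.75-fold; edgeR adjusted p = 0.000897), and the call held in all 16 alternatives that were run. Per length its level was 18.2 CPM per kb in PBS and 50.02 CPM per kb in treated livers. The microRNA gene Mir6386 lies within it on the other strand.

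The other 11 effectors did not pass the test, and their log2 fold changes ran from -0.02 (Oas2, an oligoadenylate synthetase that activates RNase L) to 0.68 (Mx2, a dynamin-like GTPase). The most abundant of them was Bst2, tetherin, which holds budding virus at the cell surface and had 302 CPM per kb in PBS and 300 CPM per kb in rFGF21 libraries. Its log2 fold change was -0.01 ± 0.15. Oas1a came next by the average of both groups, at 22.04 and 28.46 CPM per kb, with a log2 fold change of 0.37 ± 0.20 (adjusted p = 0.348). Mx2 was chosen after its values were seen, for the size of its fold change. It was read at 15.0, 17.8, 29.0 and 14.5 CPM in PBS and 17.7, 41.2, 43.0 and 20.6 CPM in rFGF21 libraries, so that PBS library 4 exceeded rFGF21 libraries 1 and 5; the log2 fold change was 0.68 ± 0.31 (adjusted p = 0.271). Rsad2, viperin, was the least abundant member at 0.940 and 1.35 CPM per kb.

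None of the 9 genes of the IFIT, IFI and ISG15 system passed the test, and 7 of the 9 had positive log2 fold changes (median 0.25). Ifi27, a mitochondrial interferon-induced protein, was the most abundant at 119 and 125 CPM per kb and had a log2 fold change of 0.07 ± 0.14. Isg15, a ubiquitin-like modifier, was read at 20.3, 18.5, 32.8 and 19.2 CPM in PBS and 22.4, 55.5, 53.3 and 16.8 CPM in rFGF21 libraries. The highest and the lowest value both came from treated libraries, and the log2 fold change was 0.70 ± 0.36 (adjusted p = 0.327). Ifit1 and Ifit3, which bind foreign RNA, were chosen after their values were seen. Ifit1 was read at 7.44, 14.3, 22.7 and 9.34 CPM in PBS and 14.5, 37.8, 33.2 and 12.3 CPM in rFGF21 libraries, a log2 fold change of 0.86 ± 0.41 (adjusted p = 0.294). Ifit3 was read at 16.1, 17.0, 29.3 and 17.2 CPM in PBS and 14.6, 36.0, 34.1 and 13.2 CPM in rFGF21 libraries, with a log2 fold change of 0.30 ± 0.33 (adjusted p = 0.687). In all 3 of these genes the high libraries were PBS library 4 and rFGF21 libraries 2 and 3.

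Of the 6 interferon-inducible GTPases, which attack the membranes around intracellular pathogens, none passed the test and 2 had an unadjusted p under 0.05. Iigp1 (Irga6), the most abundant of them at 58.1 and 85.7 CPM per kb, was read at 261, 305, 457 and 330 CPM in PBS and 428, 606, 535 and 429 CPM in rFGF21 libraries. PBS library 4 overlapped the treated range. The log2 fold change of 0.56 ± 0.18 had an adjusted p of 0.126, which became 0.0347 without PBS library 4 and 0.0255 with DESeq2. Gbp2, a guanylate-binding protein, was read at 11.7, 12.6, 14.7 and 19.5 CPM in PBS and 19.5, 26.4, 17.7 and 17.8 CPM in rFGF21 libraries, with a log2 fold change of 0.48 ± 0.18 (adjusted p = 0.185). Igtp (Irgm3) and Irgm1, regulatory members of the family, had log2 fold changes of -0.09 ± 0.21 and 0.04 ± 0.21. Igtp overlaps the related gene Irgm2, so its count is uncertain.

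The nucleic acid sensors, the PARP9 complex and the antigen-processing genes gave no call. Among the 3 sensors, Zbp1, a sensor of Z-form nucleic acid, had a log2 fold change of 0.28 ± 0.25 and Ddx58, which encodes RIG-I, one of 0.04 ± 0.20. Ifih1, which encodes the RNA sensor MDA5, lay between them at 0.17 ± 0.17. Parp9, a partner of the ubiquitin ligase DTX3L, and Parp14, a mono-ADP-ribosyltransferase, had log2 fold changes of 0.02 ± 0.14 and 0.25 ± 0.19; Parp9 and Dtx3l overlap on the chromosome. Psmb8 and Psmb9, subunits of the immunoproteasome, were at -0.02 ± 0.11 and -0.14 ± 0.11. Tap1, which carries peptides into the endoplasmic reticulum and overlaps Psmb9, was at 0.17 ± 0.10.

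A further 117 pathway genes in the table were examined, of which 113 could be tested. Of these 2 rose and 0 fell, where 1.15% of all genes rose and 1.67% fell. At an unadjusted p under 0.05 there were 12 higher and 1 lower, where 8.92% of all genes were higher and 9.86% lower. The counts of higher genes were thus near the shares over all genes. limma-voom and DESeq2 also called 0 of them lower. Their median log2 fold change was 0.14, and 69.0% were positive. Ikbke, the kinase IKK epsilon that phosphorylates IRF3 and IRF7, was read at 71.4, 69.2, 79.3 and 63.2 CPM in PBS and 108, 122, 105 and 113 CPM in rFGF21 libraries, with no overlap. Its log2 fold change was 0.66 ± 0.09 (edgeR adjusted p = 0.00732), with means of 70.8 ± 6.64 and 112 ± 7.25 CPM.

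Among the 18 signalling genes, Irf2bpl (0.30 ± 0.12) and the kinase Jak1 (0.18 ± 0.08), which serves both interferon receptors, did not pass the test. Among the 14 sensing genes, Ikbke alone passed, and Sting1 (0.52 ± 0.15, adjusted p = 0.104) and Cgas (0.65 ± 0.21, adjusted p = 0.121), the adaptor and the enzyme of cytosolic DNA sensing, did not. None of 54 further interferon-stimulated genes passed; Phf11d (0.62 ± 0.21), the chemokine Cxcl10 (0.60 ± 0.22) and the GTPase Ifi47 (0.38 ± 0.14) had the smallest p-values, with adjusted p of 0.144, 0.165 and 0.172. Of 14 further interferon-inducible GTPases and 13 antigen-presentation genes none passed, and Gbp2b had the 1 negative log2 fold change with an unadjusted p under 0.05 (-0.80 ± 0.32, adjusted p = 0.214). The 4 interferon ligands in the table, Ifnb1, Ifnk, Ifnz and Ifng, were read at 0 to 8 counts in a library and were not tested.

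How far libraries of 1 group varied together was read from log2 CPM with each group's mean subtracted, which removes the mean difference between the groups. Over the 1081 pairs of members, the mean Pearson correlation of these deviations across the 8 libraries was 0.400 (median 0.641), and 72.1% of pairs were positive. Over all pairs of the 18315 tested genes the mean was 0.000. Each correlation shares the same 8 libraries and their scaling. The mean was 0.277 within PBS and 0.528 within rFGF21 libraries. The first principal component carried 68.3% of the members' within-group variance, against 44.4% for the other pathway genes and 28.0% for all genes. The members' median within-group SD was 0.33 on the log2 scale, against 0.25 for all genes.

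The shared variation separated the same libraries in most of the genes, as the map of deviations shows. PBS library 4 lay above its group by a mean log2 deviation of 0.34 and rFGF21 libraries 2 and 3 by 0.30 and 0.26, while rFGF21 libraries 1 and 5 lay at -0.25 and -0.31. Over all genes these mean deviations stayed between -0.04 and 0.04. PBS library 4 was the highest PBS library in 35 of 47 members, against 31.0% of all genes. Both rFGF21 libraries 2 and 3 exceeded both libraries 1 and 5 in 38 of 47 members, against 19.1% of all genes. Both orders held in 33 members, against 5.6% of all genes and 49 of the 113 other pathway genes. These orders were noticed in the data before they were counted.

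**Figure D3:**
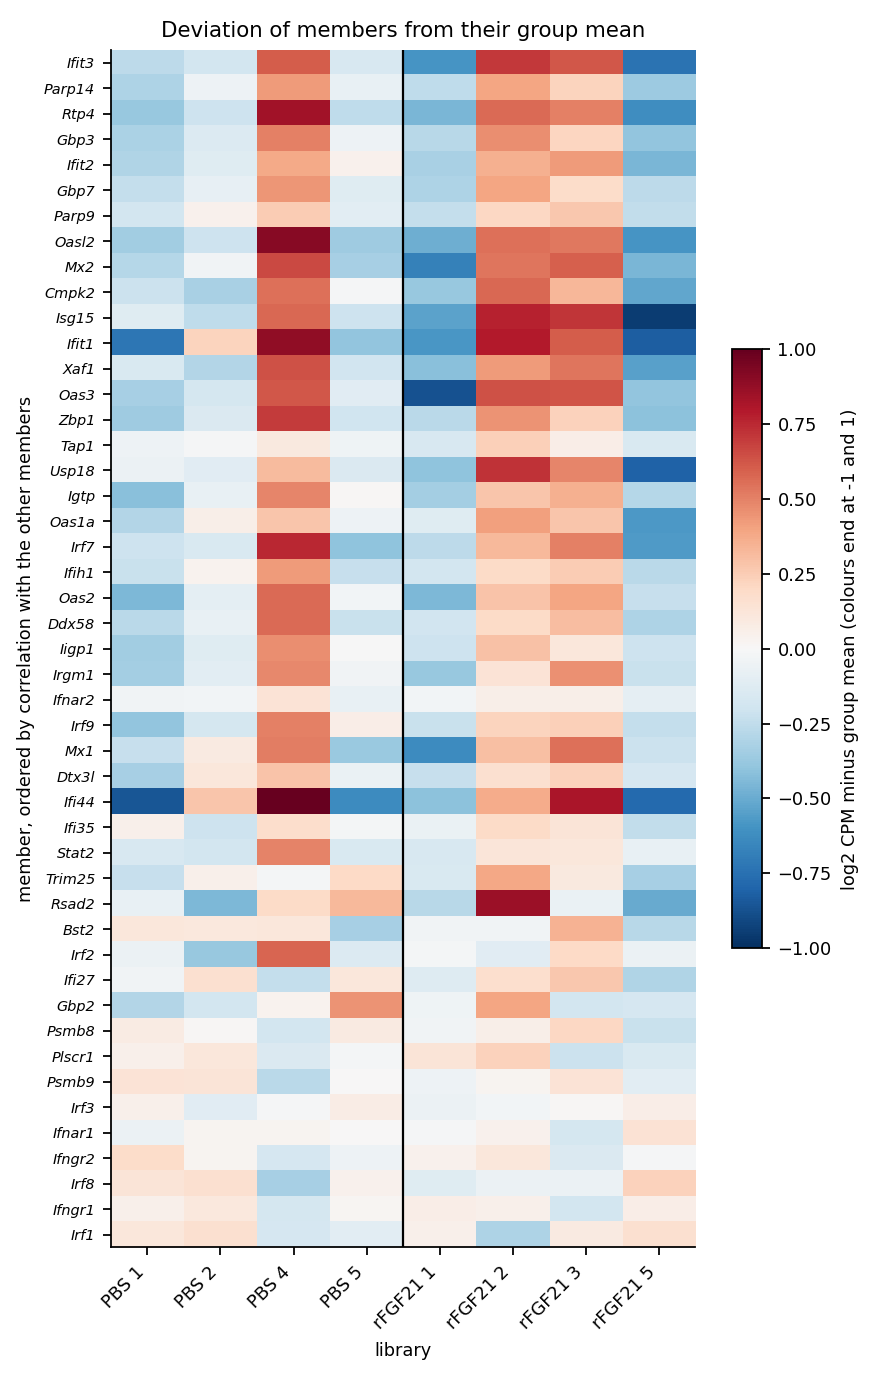
Log2 CPM of each member (vertical axis, ordered by correlation with the other members) in each of the 8 libraries (horizontal axis) as the difference from its own group's mean, in colour. PBS library 4 and rFGF21 libraries 2 and 3 are above their group mean in 37, 42 and 40 of the 47 members.

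The mean pairwise correlation within a role group ran from near 0 to near 1. It was 0.97 for the 3 sensors, 0.94 for Parp9, Dtx3l and Parp14, 0.76 for the 6 GTPases, 0.74 for the IFIT, IFI and ISG15 genes and 0.62 for the OAS and MX group. It was -0.06 among the IRFs and -0.05 among the receptors and Stat2. For the 9 IFIT, IFI and ISG15 genes it was 0.96 within rFGF21 libraries alone and 0.31 within PBS libraries alone. Ifit3 had the closest match with the mean of the other members (r = 0.99 over 8 libraries, rho = 0.95), and without the 2 libraries farthest from the median its r was 0.99.

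The 3 genes that rose lay outside the group of members that varied most closely together. For 31 members the correlation with the mean of the others was above 0.8; these had a median log2 fold change of 0.25, a median within-group SD of 0.38, and 0 calls. A further 8 members lay between 0 and 0.8, with 0 calls. The remaining 8 (Ifnar1, Ifngr1, Ifngr2, Irf1, Irf3, Irf8, Plscr1 and Psmb9) lay below 0. They had a median log2 fold change of 0.35 and a median SD of 0.14, and all 3 calls were among them. The test sets a difference against this spread, and the part of the spread in the number of calls was not tested. The correlation was -0.71 for Irf1 (rho -0.69), -0.68 for Ifngr1 (rho -0.43) and -0.11 for Plscr1 (rho 0.14). Without the 2 farthest libraries, PBS library 4 and rFGF21 library 2, these became -0.17, -0.84 and -0.47, so the value for Irf1 rests on those libraries. Of the others below 0, Psmb9 moved from -0.12 to 0.69 without them, and Ifnar1, Ifngr2, Irf3 and Irf8 stayed below 0. Their rho was 0.12 for Psmb9, 0.07 for Ifnar1 and below 0 for Ifngr2, Irf3 and Irf8. Promoter motifs could be set beside the correlation for the 37 members with a promoter only. The median correlation with the other members was 0.49 with a GAS match and 0.90 without one. For the ISRE core the medians were 0.92 with and 0.80 without. A correlation above 0.8 was found for 6 members with a GAS match and 16 without, and for 11 with an ISRE core and 11 without.

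**Figure D4:**
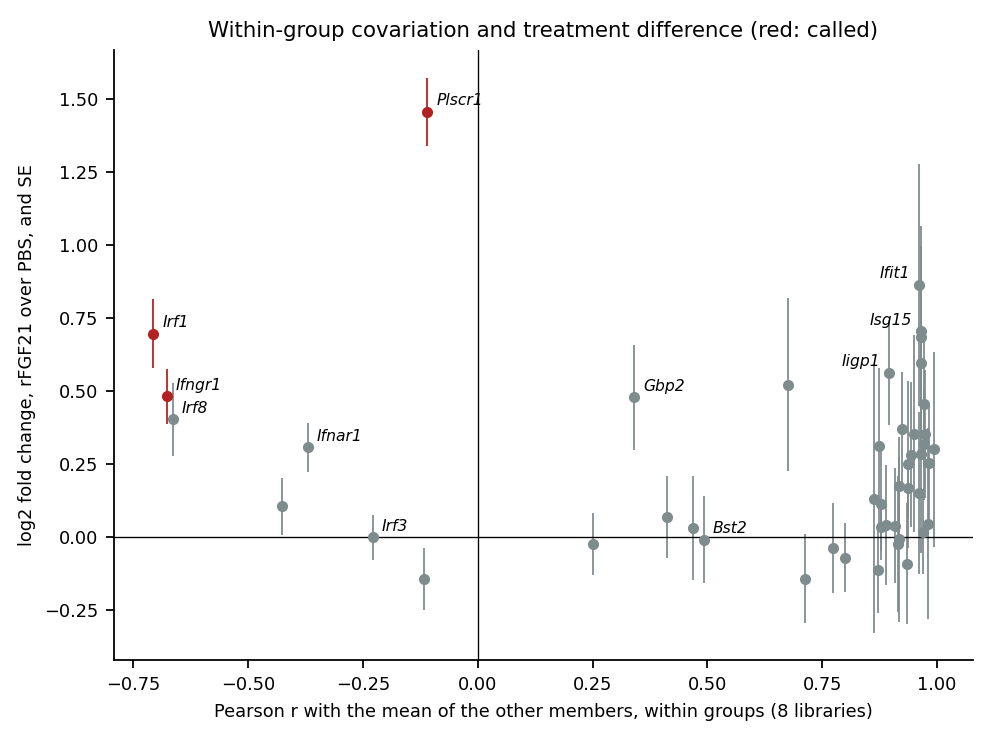
Log2 fold change of rFGF21 over PBS (y axis) of each member against its correlation, across 8 libraries after removal of group means, with the mean of the other members (x axis), with bars of 1 SE and members past the threshold in red. The 3 members past the threshold lie left of 0 and the 31 members right of 0.8 hold none.

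Marker sums followed this pattern for some cell types, in full or in part, and ran against it for others. The sum of 5 hepatocyte markers was 65763, 62794, 78906 and 59450 CPM in PBS libraries 1, 2, 4 and 5. In rFGF21 libraries 1, 2, 3 and 5 it was 68037, 70344, 68505 and 56688 CPM. PBS library 4 and rFGF21 libraries 2 and 3 were thus highest, library 3 only narrowly above library 1. Most of the sum was Alb (group means 52271 and 53679 CPM), also highest in those libraries. Ttr and Apoa1 were highest in other libraries of both groups. Cyp2e1 was highest in PBS library 4 but in rFGF21 library 5, and Serpina1c in PBS library 5 but in rFGF21 libraries 2 and 3. The summed level of 6 Kupffer cell markers was 270, 455, 550 and 165 CPM in rFGF21 libraries 1, 2, 3 and 5, and that of 5 endothelial markers was 76.5, 130, 111 and 65.7 CPM, in both cases highest in libraries 2 and 3. In PBS libraries 1, 2, 4 and 5 the Kupffer sum was 544, 392, 473 and 686 CPM and the endothelial sum 151, 72.0, 94.6 and 101 CPM, with library 4 the highest in neither. The sum of 5 cholangiocyte markers ran the other way, at 316, 233, 257 and 360 CPM in rFGF21 libraries and lowest in PBS library 4 (167 CPM, others 237 to 262). The sum of 5 stellate cell markers did so too, at 463, 389, 370 and 401 CPM in PBS and 482, 399, 404 and 505 CPM in rFGF21 libraries. Plasmacytoid dendritic cell markers summed to at most 3.94 CPM, T and NK cell markers to at most 11.4 CPM and B cell markers to at most 3.92 CPM. PBS library 4 was the lowest PBS library in each of these sums. It was also the lowest in the monocyte sum (71.2 CPM, others 86.5 to 98.1) and the neutrophil sum (10.8 CPM, others 12.2 to 18.4). Among rFGF21 libraries, library 5 was the highest in these sums, except that of T and NK cells, highest in library 3. The part of these cells in the shared variation was not tested.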

How the data were processed

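Whole-number read counts per gene are the values used, from the authors' deposited table, per the file headers. The submitters' processing notes name Bowtie 0.12.2 and build mm8. The printed gene coordinates belong to GRCm38 instead, where 43 of the 47 members have identical coordinates in GENCODE M21, and are given as the table prints them. No source used here gives the counting tool or its strand setting. Counts are uncertain for the 19 members that overlap another gene, on the same strand (6) or the other strand (14).

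Each group has 5 count columns, and the 4 that also have an FPKM column entered the fit. Another 10 columns of per-library values (2 of counts, 8 of FPKM) were left aside. Columns carry numbers up to 5 where the labels stop at 4, so a column was tied to its group only, and libraries are named by group and column number. No 2 libraries agreed within sampling noise (chi-square per degree of freedom at least 47.1).

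Genes were filtered with filterByExpr, which left 18315, scaled by TMM and tested with edgeR 4.0.16 (R 4.3.3), quasi-likelihood F test, two-sided, without covariates and with Benjamini-Hochberg adjustment. Adjusted p-values are from that test unless another tool is named, and the standard error (SE) of a log2 fold change follows from its F statistic. The steps were tested on simulated counts. Alternatives were DESeq2 1.42.0, limma-voom (limma 3.58.1), other scalings and filters, and each library left out. Level per length divides CPM by the union of a gene's exons in GENCODE M21. Within-group deviations used log2 CPM with a prior count of 2.

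The members and the lists of pathway and marker genes were chosen with earlier results of these data known. Values per library are given for members with an unadjusted p under 0.05, group levels and fold changes for IRFs, receptors and Stat2, and of the rest the 2 with the highest level per length in each role group. Of the other pathway genes, those past the threshold and up to 3 per list with the smallest p are named, except items that are not reported here. Other named genes are marked as chosen after their values were seen, complete a role group, or stand at an end of a range (Oas2 and Rsad2). Irgm1 was named beside Igtp. Further members are named only for covariation, outliers or settings.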

Additional observations from a re-analysis of the deposited data

Results flagged for a closer look

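In 12 of 94 groups of 4 libraries (12.8%), 1 library stood apart from the other 3 by a larger part of the group's range than Dixon's criterion for 4 values allows. The criterion is set to mark about 1 in 20 groups of normally distributed values. The members share libraries and vary together, so the 12 are not independent, and the share over all genes was not counted. In 9 of the 12 it was PBS library 4, which was high each time. Its CPM was 257 for Irf7 (others 115 to 137), 113 for Stat2 (70.5 to 72.3), 29.3 for Ifit3 (16.1 to 17.2), 32.8 for Isg15 (18.5 to 20.3) and 38.7 for Usp18, the ISG15 protease (28.1 to 29.8). It was 67.7 for Oasl2 (28.2 to 31.3), 82.7 for Rtp4 (35.4 to 40.0), 31.7 for Xaf1 (16.6 to 18.3) and 65.4 for Zbp1 (31.5 to 36.5). The remaining 3 were Bst2 in PBS library 5, low at 215 CPM (others 291 to 293), Ifngr1 in rFGF21 library 3, low at 65.5 CPM (77.3 to 78.1), and Irf8 in rFGF21 library 5, high at 32.3 CPM (25.4 to 26.5).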

How the results depend on the processing

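Plscr1 was called in all 16 alternatives, Irf1 in 12 and Ifngr1 in 9, and 0 members were called lower in any of them. Against 3 members higher, 2 other pathway genes higher and 516 genes in all, the test with no low-count filter gave 2 members (Ifngr1 lost), 1 pathway gene and 198 genes. DESeq2 gave 6 members (Ifnar1, Iigp1 and Irf8 added), 5 pathway genes and 1527 genes. Leaving out 1 library at a time gave 1 to 4 members (1 without rFGF21 library 1 or 5), 1 to 2 pathway genes and 131 to 486 genes. The cause of these shifts was not tested. The members' mean within-group correlation ran from 0.354 (without rFGF21 library 2) to 0.468 (without PBS library 4). The planned fits on FPKM were not run.

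Columns numbered 1, 2 and 5 occur in both groups. A fit with the number as a replicate block gave 1 member (Plscr1), 0 pathway genes and 12 genes in all, and the same 6 libraries without the block, an alternative chosen after seeing the data, gave 2 members (Plscr1 and Ifngr1) and 281 genes. Irf1 was thus lost in both fits (adjusted p = 0.186 and 0.0652) and Ifngr1 only with the block (0.117 and 0.0269). Deviations of same-numbered libraries correlated at 0.065, -0.036 and -0.099, and 1 of 3 numbers matched best with itself. These 3 numbers are too few to decide whether same-numbered libraries share more than a number.

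Some log2 fold changes changed sign between alternatives. In the main fit most of these lay near 0, but Usp18 was at 0.25, Xaf1 at 0.15, Ifi44 at 0.13 and Irf9 at 0.11. Irf3 became 0.0026 with upper quartile scaling and 0.0043 with a filter of 1 CPM in 4 libraries. Irf7 became 0.00063 with upper quartile scaling and 0.0017 with limma-voom. With the block and with the same 6 libraries without it, Irf7 was 0.087 and 0.13, Stat2 0.12 and 0.12, Ifi27 -0.11 and -0.10, and Oas2 0.039 and 0.061. With 1 library left out, log2 fold changes ran from -0.088 to 0.27 for Irf2, -0.038 to 0.032 for Irf3, -0.19 to 0.32 for Irf7, -0.0043 to 0.31 for Irf9, -0.10 to 0.16 for Stat2, -0.025 to 0.16 for Ifi27, -0.14 to 0.0065 for Ifi35, -0.20 to 0.69 for Ifi44, -0.011 to 0.46 for Usp18 and -0.17 to 0.20 for Oas2. They ran from -0.14 to 0.076 for Bst2, -0.15 to 0.42 for Rtp4, -0.038 to 0.42 for Xaf1, -0.071 to 0.27 for Ddx58, -0.078 to 0.11 for Parp9, -0.13 to 0.23 for Irgm1, -0.22 to 0.10 for Igtp and -0.10 to 0.046 for Psmb8.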
